A study of Homo sapiens with 2 samples.

Results

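The MHC class II genes and their regulators were examined in an EBV-transformed lymphoblastoid line, a culture of human B cells made immortal with Epstein-Barr virus. The 10 genes were CD74, HLA-DRA, HLA-DPA1, HLA-DPB1, HLA-DMA, HLA-DMB, HLA-DOA, HLA-DOB, CIITA and RFX5, of 16716 genes named on the arrays. They were chosen by symbol, and every probe set whose platform annotation gave exactly 1 gene symbol from this list was used, which made 23 probe sets of 36289. The series has 1 group of 2 replicate arrays of total RNA from untreated cells grown in RPMI1640 with fetal calf serum, and no other condition or genotype. The sample names write the line as GM06690 and the growth protocol as GM06990. The labels do not say whether the 2 arrays came from separate cultures, and their spread may be technical.

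MHC class II molecules are pairs of an alpha and a beta chain that present peptides from endosomes to CD4+ T cells, and B cells are among the cell types that carry them constitutively. New pairs bind the invariant chain CD74, which is cut down in the endosome to a short peptide that HLA-DM then exchanges for antigen, while HLA-DO restrains HLA-DM. The genes share an upstream module of X and Y boxes, where the RFX complex, CREB1 and NF-Y assemble and recruit the coactivator CIITA, which does not bind DNA itself.

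All values are RMA signals, given as intensities or as their log2. RMA corrects the background, equalises the arrays and joins the probes of a set into 1 value, and it gives no detection call. For each array, 77 measured genes that belong to other tissues, such as liver, muscle and eye, gave the background level, placed at the 95th percentile of their signals. It was 61.3 in replicate 1 and 59.7 in replicate 2 (5.94 and 5.90 on the log2 scale). Of the 77 genes, 4 lay above it on both arrays, among them KRT10 (2328 and 2511) and MBP (1264 and 1318). The list thus also held bright genes. A probe set counted as above background when it exceeded the level on both arrays, and a gene was represented by its brightest probe set. A probe set below the level may still have a transcript. Probe sets differ in affinity, so a signal describes its own probe set and the signals of different genes are not ranks of transcript amount. Probe sets of like signal are those in the same of 20 equal bins of mean log2 signal. The median intensity over all probe sets was 33.2 in replicate 1 and 33.3 in replicate 2, and Pearson r between the arrays was 0.997 across probe sets, which are not independent replicates.

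Because CIITA acts through the X and Y boxes, promoter stretches around Y box cores found in the members other than RFX5 are shown first. They are shown whether or not an X box core lay beside the Y box core. They come from RefSeq windows of assembly GRCh38.p14, which run from 250 bases before an annotated transcript start to 50 bases after it, on the gene's own strand. Of the 10 members, 8 had a window and together they had 11. HLA-DRA and CIITA were not in the table. The letters searched, on both strands, were ATTGG as the core of the Y box, where NF-Y binds, ACNGATG as a core of the X box, where RFX binds, and TTTGCAT as a core of the octamer. None of the 3 motifs overlaps another in these windows. The capitals below mark X and Y box cores, and CCAAT in capitals is the Y box core read on the other strand.
HLA-DMA (chr6:32953164-32953214, minus strand): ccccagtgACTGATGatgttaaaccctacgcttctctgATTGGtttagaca
HLA-DMB (chr6:32941038-32941120, minus strand): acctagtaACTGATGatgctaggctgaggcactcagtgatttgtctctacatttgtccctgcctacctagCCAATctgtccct
HLA-DOB (chr6:32817088-32817150, minus strand): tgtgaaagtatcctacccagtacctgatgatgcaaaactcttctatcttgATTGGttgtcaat
HLA-DOA (chr6:33009646-33009708, minus strand): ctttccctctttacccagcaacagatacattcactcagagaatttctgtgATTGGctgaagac
HLA-DPB1 (chr6:33075841-33075903, plus strand): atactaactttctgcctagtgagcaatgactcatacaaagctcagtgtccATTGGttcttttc
CD74 (chr5:150412951-150413013, minus strand): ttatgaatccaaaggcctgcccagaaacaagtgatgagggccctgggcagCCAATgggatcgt
HLA-DRB1 (chr6:32589882-32589931, minus strand), a chain outside the member list shown for comparison: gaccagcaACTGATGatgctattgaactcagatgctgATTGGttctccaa

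The Y box core was found in the windows of 7 of the 8 member genes with a window (7 of 11 windows), where 34.6% of all 35116 windows hold it. HLA-DPA1 was the member without it in either of its windows, which says only that these letters are not there. The X box core was found in 3 member genes, CD74, HLA-DMA and HLA-DMB (3 of 11 windows), against 7.65% of all windows. In CD74 it began at -209 on the other strand, outside the printed stretch, and the Y box core began at -53. The octamer core was found in 1 member gene, HLA-DOB (1 of 11 windows), against 4.46% of all windows. It lay at position -119 from the start and on the other strand. These matches describe letters and are not evidence of binding.

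An ordered pair was an X box core followed on the same strand by a Y box core after 10 to 40 bases, a spacing set after the sequences were seen. It was present in 1 member gene with a window, HLA-DMA (1 of 11 windows), against 0.211% of all windows. There the X box core began at position -109 and the Y box core at -79, with 23 bases between them. In HLA-DMB, the other chain of the same exchange factor, the X box core began at -84 and its Y box core lay on the opposite strand, at -22. Among the class II chains outside the member list, 3 of 6 genes had the ordered pair. These were HLA-DRB1, HLA-DRB5 and HLA-DQB1, each with 22 bases between the cores. The Y box core printed above for HLA-DOB began at -98, that of HLA-DPB1 at -99 and that of HLA-DOA at -67. The Y box cores of RFX5, which are not printed, began at -177 and -95 on the other strand.

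**Figure D1:**
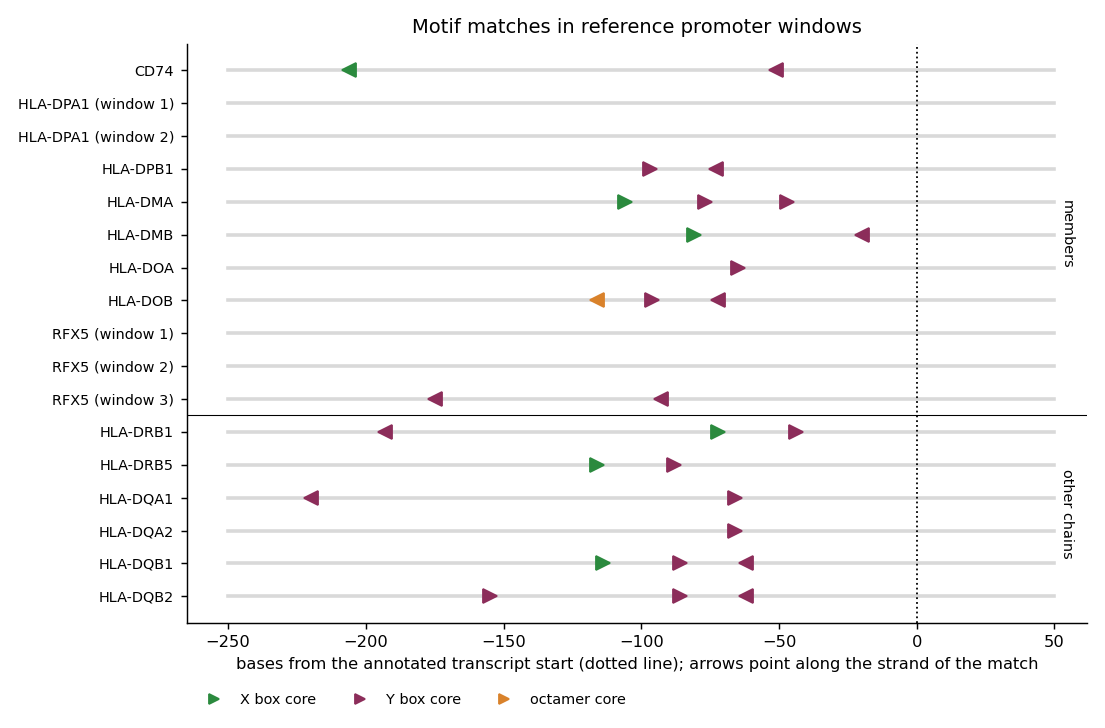
Positions of X box, Y box and octamer cores in the RefSeq promoter windows of the members (upper block) and of other class II chains (lower block), in bases from the annotated transcript start. Each grey line is 1 window, arrows point along the strand of the match, and 3 of the 11 member windows hold an X box core against 7 that hold a Y box core.

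All 10 member genes were above background on both arrays, where 50.5% of all genes were. By probe set the count was 16 of 23, where 41.6% of all probe sets were above. The 7 other probe sets were below the level on both arrays, and none was above on 1 array alone. They belonged to CD74, HLA-DOA, HLA-DOB and CIITA. Of the 7 members with at least 2 probe sets, 3 (HLA-DRA, HLA-DPA1 and RFX5) had every probe set above background, where 31.1% of all such genes did.

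The invariant chain gene CD74 had intensities of 14732 in replicate 1 and 14736 in replicate 2 by its brightest probe set. On the log2 scale this was 13.85 with an SD under 0.01 (n = 2). A further CD74 probe set read 396 and 417, also above the level on both arrays, and another read 17.3 and 16.2, below it. The arrays thus gave nearly the same value for each CD74 probe set, while the probe sets of the gene differed in call.

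Of the chains that form the presenting pairs, HLA-DRA encodes the alpha chain common to all HLA-DR molecules. Its intensities were 19463 and 18910 in replicates 1 and 2 by one probe set and 10470 and 10679 by the other. Both probe sets were far above the level, and the sign of the small difference between the arrays was opposite in them (-0.04 and 0.03, replicate 2 minus replicate 1, log2).

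HLA-DPA1 and HLA-DPB1 encode the alpha and beta chains of HLA-DP and lie next to each other on chromosome 6. HLA-DPA1 read 14863 and 14778 by its brightest probe set, 7882 and 8128 by another, and 608 and 602 by the third, all above background. HLA-DPB1, with 1 probe set, read 4155 and 3876. The HLA-DPB1 values differed by -0.10 on the log2 scale, a larger difference than that of 89.8% of probe sets of like signal, and the HLA-DPA1 values by -0.01.

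**Figure D2:**
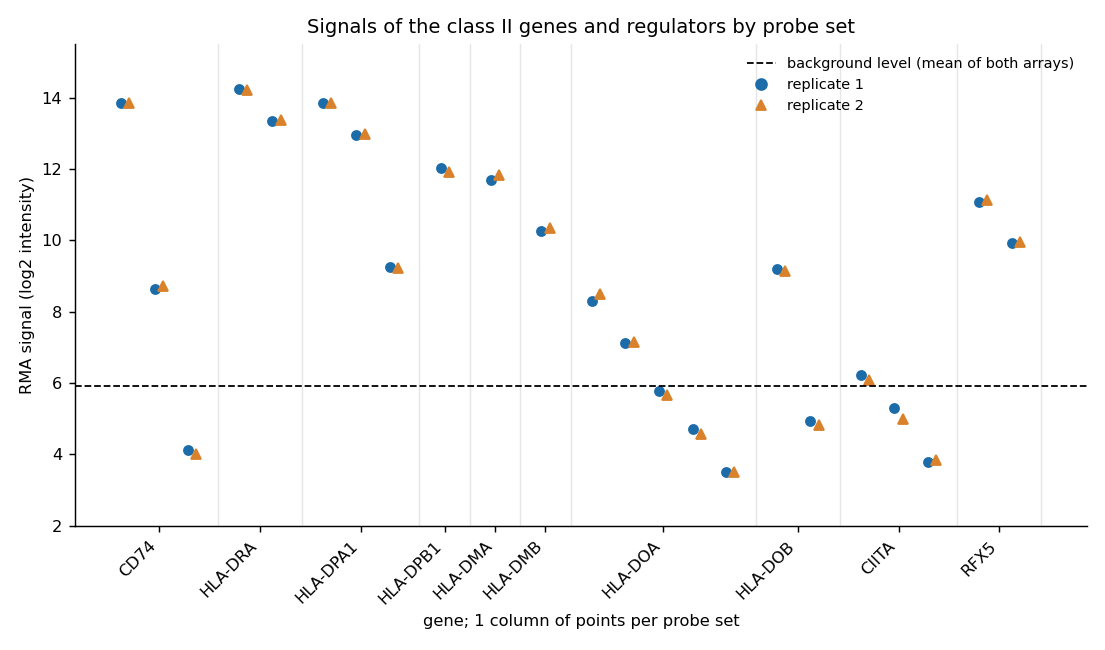
RMA signals (log2 intensity) of the 23 probe sets of the 10 genes, with circles for replicate 1, triangles for replicate 2 and the mean background level as a dashed line. The replicates of a probe set nearly coincide, and the probe sets of CD74, HLA-DOA, HLA-DOB and CIITA fall on both sides of the line.

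HLA-DM, encoded by HLA-DMA and HLA-DMB, catalyses peptide exchange. HLA-DMA had intensities of 3322 in replicate 1 and 3627 in replicate 2, and HLA-DMB had 1237 and 1306. Both genes have 1 probe set, and both were higher in replicate 2, by 0.13 and 0.08 on the log2 scale. The HLA-DMA difference exceeded that of 94.8% of probe sets of like signal and the HLA-DMB difference that of 69.1%.

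HLA-DO, encoded by HLA-DOA and HLA-DOB, inhibits HLA-DM and is found mainly in B cells, thymic epithelium and some dendritic cells. HLA-DOA had 5 probe sets. The brightest read 313 in replicate 1 and 360 in replicate 2, and another read 138 and 142, both above background. The remaining 3 were below it: 55.0 and 51.1, then 26.0 and 23.9, and a value of 11.3 on both arrays. HLA-DOB read 587 and 562 by its brightest probe set, above the level, and 30.8 and 28.4 by the other, below it. Thus each HLA-DO chain was above background by some of its probe sets only. The brightest HLA-DOB probe set ends in _s_at, a type that can match several transcripts, and without such probe sets HLA-DOB was not above background. HLA-DPB1 and HLA-DMA have only a probe set of this type, so without it they were not measured.

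CIITA was the member closest to the level. Its brightest probe set read 74.2 in replicate 1 and 67.2 in replicate 2, or 6.14 ± 0.10 on the log2 scale (SD, n = 2), which is 0.22 above the mean level, a 1.17-fold ratio. The other CIITA probe sets read 39.3 and 31.8, and 13.9 and 14.3, below the level on both arrays. With the mean of all its probe sets in place of the brightest, CIITA was not above background. The difference of its brightest probe set between the arrays (-0.14) was larger than that of 44.8% of probe sets of like signal, so it was of ordinary size for so dim a signal.

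RFX5 encodes the DNA-binding subunit of the RFX complex that occupies the X box. It read 2165 and 2220 by one probe set and 975 and 992 by the other. Both probe sets were above background and both were slightly higher in replicate 2, by 0.04 and 0.03 on the log2 scale.

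The spread between the arrays over the members was close to that over all genes above background. The median SD of the paired log2 values was 0.051 over the 10 genes, against 0.048 over all genes above background and 0.070 over all genes. The median difference, replicate 2 minus replicate 1, was -0.0039 over the members (from -0.14 to 0.20), against -0.0061 over all genes. It was positive in 5 members and negative in 5. HLA-DOA had the largest difference among the brightest probe sets (0.20), above that of 87.8% of probe sets of like signal, while its next probe set differed by 0.04.

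Within the bins of like signal, 0 of the 23 member probe sets differed by more than the 95th percentile of their bin, where 5.02% of all probe sets did. Of the 23, 16 differed by less than the median of their bin, against 50% of all probe sets. Several of the 23 belong to the same gene and are not independent, so these counts are not a result about the members. Among the 5 members with at least 2 probe sets above background, those of 3 (CD74, HLA-DOA and RFX5) all differed in the same direction, against 41.2% of all such genes. Probe sets below background were left out of this count. With 5 members this share is not a result about them. These values rest on 1 pair of arrays, and no test between conditions is possible.

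**Figure D3:**
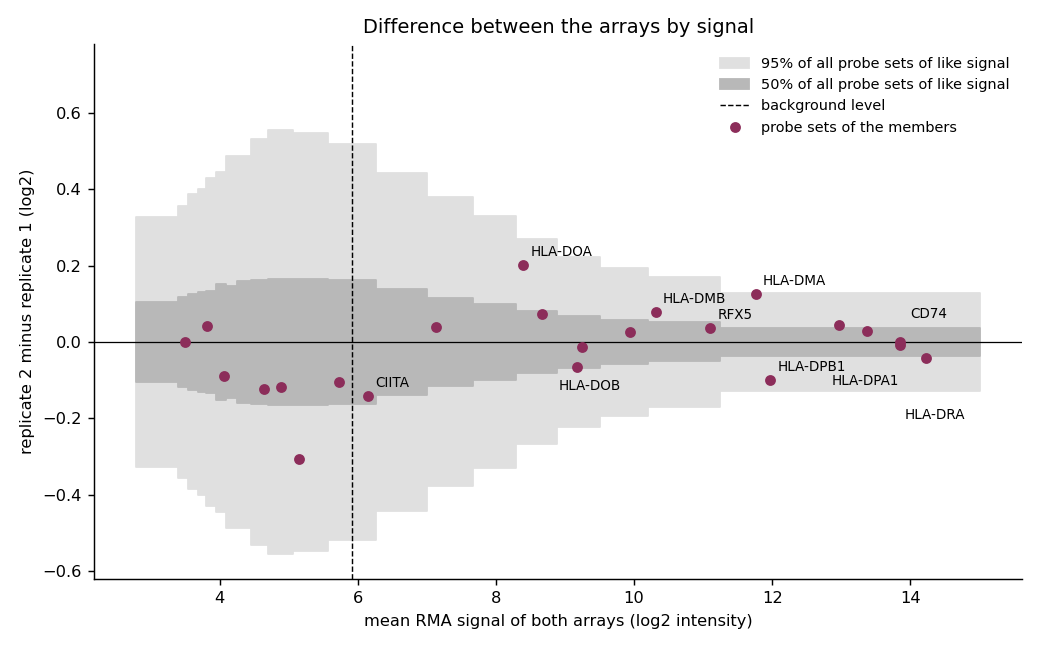
Difference between the arrays (replicate 2 minus replicate 1, log2) against the mean signal of both arrays, with member probe sets as points and the ranges that hold 50% and 95% of all probe sets of like signal as grey steps. All 23 points lie inside the wider range, and the brightest probe set of each gene is named.

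As a description of the array's scale, 7 of the 23 member probe sets, from 5 genes (CD74, HLA-DRA, HLA-DPA1, HLA-DPB1 and HLA-DMA), were among the brightest 5% of probe sets. The median log2 signal of the members was 11.43, against 6.10 over all genes.

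Further class II chains were above background in 4 of 5 measured genes, where 50.5% of all genes were. The same share of all genes stands beside each list count that follows. HLA-DRB1, a beta chain partner of HLA-DRA, read 5329 and 5453, HLA-DRB4, another, read 3612 and 3922 by its brightest probe set, and HLA-DQA1, the alpha chain of HLA-DQ, read 6258 and 6203 by its brightest. The other HLA-DRB4 probe sets, at 61.7 and 43.2 and at 18.4 and 16.8, were not above background on both arrays, and the other HLA-DQA1 probe set, at 172 and 147, was. HLA-DQB2 read 26.2 and 27.5 and was below the level. The chains are similar in sequence: 5 probe sets carried several class II symbols at once and named no gene, all 5 of them above background. One of these 5 carried the alpha chain symbols HLA-DQA1 and HLA-DQA2. The single values of these alpha and beta chains are therefore uncertain.

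The proteins that assemble with RFX5 were above background in 5 of 6 genes. RFXANK, an RFX subunit, read 1223 and 1233, and NFYA, a subunit of NF-Y, read 272 and 333. RFXAP, the other RFX subunit, read 45.8 and 46.6 by its 1 probe set and was below the level on both arrays. All 6 CIITA cofactors were above background, among them the acetyltransferases KAT2B (256 and 268), CREBBP (723 and 675) and EP300 (314 and 275). CREBBP was above by 1 of its 2 probe sets.

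Of the factors known to act on CIITA transcription 6 of 7 measured genes were above background. PRDM1, which represses CIITA when B cells become plasma cells, read 393 in replicate 1 and 315 in replicate 2. IRF1 read 664 and 665. IRF4 read 3180 and 2732 by its brightest probe set, and 2 of its 3 probe sets were above background. SPI1, which encodes PU.1, read 34.7 and 42.1 and was below the level. Of the octamer proteins, which act on HLA-DRA in B cells, the coactivator POU2AF1 read 10232 and 10308 by its brightest probe set. It was above background by 1 of its 2 probe sets. POU2F2 read 46.2 and 44.5 and was below the level by both of its probe sets.

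Of the genes of class II peptide processing and turnover 7 of 9 measured were above background. CTSS, the cathepsin that trims the invariant chain in B cells, read 1430 and 1397, and CTSB, another lysosomal protease, read 296 and 303. CTSL, a further cathepsin, read 35.9 and 23.0, and MARCHF1, a ubiquitin ligase that lowers surface class II, read 13.4 and 13.2. Both were below the level on both arrays. CTSB was above background by 3 of its 4 probe sets.

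All 7 genes listed from the class I pathway, which include no class I heavy chain, were above background as well. B2M, the class I light chain, read 22087 and 23001, NLRC5, which serves class I genes as CIITA serves class II, read 587 and 643, and the peptide transporter gene TAP1 read 2402 and 2389.

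**Figure D4:**
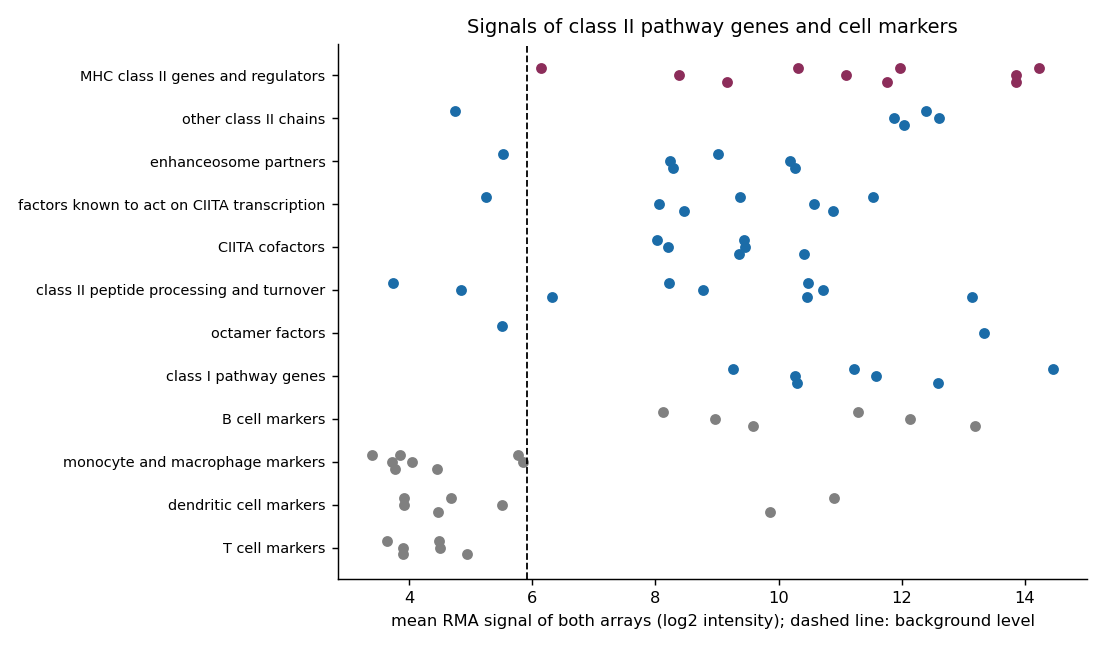
Mean RMA signal of both arrays (log2 intensity) for each measured gene of the members, of class II pathway lists and of cell markers, 1 point per gene, with the mean background level as a dashed line. All 10 members lie right of the line, as do all 6 B cell markers, whereas all 8 monocyte and macrophage markers and all 6 T cell markers lie left of it.

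The cell label was checked because monocytes and dendritic cells also carry class II molecules. All 6 measured B cell markers were above background, among them MS4A1 (8902 and 9838), CD79A (2552 and 2476) and CD79B (787 and 750). CD79B was above by 1 of its 3 probe sets. Of the monocyte and macrophage markers 0 of 8 were above, with CD14 at 14.1 and 13.2, LYZ at 13.2 and 13.1 and CSF1R at 14.4 on both arrays. S100A9 (50.5 and 59.4) and VCAN (55.9 and 59.6) lay just under the replicate 2 level of 59.7. Marker lists were not counted at other levels. T cell markers were above in 0 of 6 cases, with CD3D at 34.1 and 27.8, CD3E at 22.9 and 22.1 and CD3G at 23.7 and 21.6. Of the dendritic cell markers 2 of 7 were above, LAMP3 (1942 and 1860) and BATF3 (911 and 956), whereas CD1C (48.0 and 43.2), CLEC10A (17.9 and 12.7) and FLT3 (27.5 and 23.7) were not. The listed markers of monocytes and T cells were thus below the level, S100A9 and VCAN only narrowly in replicate 2. Whether LAMP3 and BATF3 came from other cells was not tested.

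The 7 HLA members lie on chromosome 6 in a stretch from HLA-DRA to HLA-DPB1 that holds 32 annotated genes, of which 19 were measured, while CD74 lies on chromosome 5, CIITA on 16 and RFX5 on 1. Among the 12 measured genes of the stretch outside the member list 10 were above background, where 50.5% of all genes were. TAP2, PSMB8, TAP1 and PSMB9, which serve class I peptide supply, follow HLA-DOB, and their log2 signals were 10.26 ± 0.13, 11.59 ± 0.01, 11.23 ± 0.01 and 12.59 ± 0.03 (SD, n = 2). TAP2 was above background by 3 of its 4 probe sets. BRD2, a bromodomain protein gene between HLA-DMA and HLA-DOA, was at 11.50 ± 0.07. The measured genes of the stretch not above background were HLA-DQB2 and the non-coding LOC100294145 (4.06 ± 0.10).

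**Figure D5:**
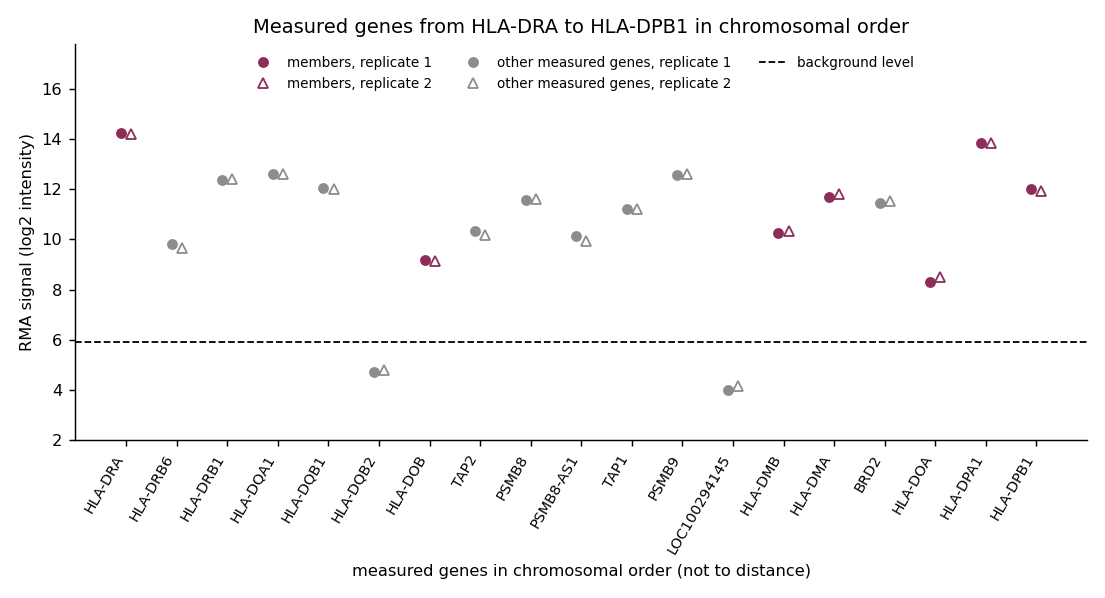
RMA signals (log2 intensity) of the 19 measured genes from HLA-DRA to HLA-DPB1 in chromosomal order, with circles for replicate 1, triangles for replicate 2, and the mean background level as a dashed line. The 7 members and 10 of the 12 other genes lie above the line.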

How the data were processed

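The deposited values are probe set intensities made by the authors with RMA, per the submitters' processing notes, with 1 Affymetrix U133 Plus 2.0 array hybridised per sample. Its version was not stated in the sources. The linear values ran from 6.29 to 33093, and log2 was taken without a pseudocount. Quantile normalization equalises the arrays, so a change in total RNA cannot be seen. Symbols came from the platform annotation, updated by Entrez ID from RefSeq (GRCh38.p14), where 29461 of 29493 probe sets with 1 symbol matched. A further 1407 had several symbols and 5389 none. The 92 genes restricted to other tissues, 77 of them measured, were listed for this work, in place of an earlier list.

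The members and lists were chosen with earlier results of these data known. Named were all members, the first 3 measured genes of each list, those whose call went against their list's majority, and genes lying between members. S100A9 and VCAN were named as well, being close to the level in replicate 2. With 1 group no test was run, and having 2 arrays limits the precision. Alternatives were the level's percentile, probe set choice, normalization, a pseudocount of 16 and leaving out each replicate. The normalization alternatives and the calls against the level were tested on simulated data, and the other steps were not. The work was done in Python 3.11.15 with pandas 2.3.3 and statsmodels 0.14.6.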

Additional observations from a re-analysis of the deposited data

How the results depend on the processing

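All 10 members, 16 of their 23 probe sets and 36 of 42 measured genes in the wider pathway lists were above background. Each count was the same without replicate 1 and without replicate 2. With the level kept, these counts could not change, because none of these genes or probe sets was above on 1 array alone. A lower background, at the 75th percentile of the other-tissue genes, gave counts of 10, 19 and 40. At the 99th percentile, which lies at 10.52 and 10.59 on the arrays (log2), between the signals of MBP and KRT10 in that list, they were 6, 8 and 14, and HLA-DMB, HLA-DOA, HLA-DOB and CIITA were not above. Without probe sets ending in _x_at or _s_at, 7 of 8 measured members, 10 of 14 probe sets and 24 of 29 pathway genes were above, and fewer probe sets were left by construction. The member not above was HLA-DOB, and the members no longer measured were HLA-DPB1 and HLA-DMA. With the mean of all probe sets of a gene the members count was 9, without CIITA, and with symbols as given it was 10. The shares of all genes and probe sets above background were not counted under these other settings. The counts there cannot be set against the arrays as a whole. The median difference between the arrays over the members lay between -0.0043 and -0.0013 under the 5 alternatives and as reported. Of 48 differences of single members under these alternatives 2 moved by more than the spread: HLA-DOA, 0.20 as reported, differed by 0.0021 with the mean of all probe sets, and HLA-DOB, -0.06 as reported, by -0.12 without probe sets ending in _x_at or _s_at. No paired analysis was possible because the series has 1 group. A signal near the level, as for CIITA, limits the call.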

Other observations

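Of the class II pseudogenes, HLA-DRB6 read 903 in replicate 1 and 798 in replicate 2, above the level, by a probe set ending in _x_at, a type that can match similar genes, and 25.2 and 22.6, below the level, by the other. HLA-DPA2 read 48.8 in replicate 1, below the level, and 62.7 in replicate 2, above it, and so was not above background on both arrays. The HLA-DOA probe set at 11.3 on both arrays was 1 of 159 probe sets with the same value on both.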
